A study of Homo sapiens with 6 samples.

Results

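The 9 imprinted genes PLAGL1, GRB10, PEG10, MEST, DLK1, MEG3, SNRPN, NNAT and GNAS were followed in a map of the histone variant H2A.Z and its ubiquitylated form. They lie in 8 windows of the hg19 genome, with DLK1 and MEG3 in the same one. H2A.Z regions were made by merging overlapping or touching peaks of ubiquitylated and total H2A.Z, and a region was kept where its midpoint lay in a window. This rule found 237 of 198179 regions: 153 at DLK1 and MEG3, 26 each at GRB10 and GNAS, 14 at PLAGL1, 7 at NNAT, 5 each at PEG10 and MEST, and 1 at SNRPN. In Mb, the windows were 144.21 to 144.44 on chromosome 6 (PLAGL1), 50.6 to 50.92 on chromosome 7 (GRB10), 94.23 to 94.35 on chromosome 7 (PEG10), 130.07 to 130.2 on chromosome 7 (MEST), 101.14 to 101.38 on chromosome 14 (DLK1 and MEG3), 25.02 to 25.27 on chromosome 15 (SNRPN), 36.1 to 36.2 on chromosome 20 (NNAT) and 57.36 to 57.54 on chromosome 20 (GNAS). Nearest to a border, a GNAS region had its midpoint 0.0255 kb inside and was higher in ubiquitylated H2A.Z, and one with its midpoint 0.2055 kb before the DLK1 and MEG3 window was differential in neither direction.

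All 6 samples came from HEK293T, an established human embryonic kidney line, and 1 transfection protocol is given for all, with a pair of plasmids at a ratio of 3 to 1. One encoded H2A.Z-1 with Flag and the biotin ligase BirA at its C-terminus, the other ubiquitin with an N-terminal AviTag, the peptide that BirA biotinylates. Cells were harvested 48 hours later and their nuclei digested with micrococcal nuclease for 30 minutes. Streptavidin then recovered ubiquitylated H2A.Z (2 samples), Flag agarose total tagged H2A.Z (2 samples) and an H3 antibody bulk nucleosomes (2 samples), which entered no comparison here. The histone is a transfected fusion, and the cells keep their own untagged H2A.Z. Parental alleles are not separated, so each value is a sum over all copies of a locus in these cells. How many copies of each parental allele they hold is not known here. The 2 forms were recovered with different reagents, and a difference between reagents cannot be told apart from one in ubiquitylation. None of the values belongs to a single library. Read depth and the spread between replicates cannot be given, and whether replicates were separate cultures is not stated, so the authors' error measures may cover technical spread alone.

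Imprinted genes are expressed from the maternal or the paternal chromosome, according to DNA methylation that is laid down in the germ line at imprinting control regions. The zinc finger protein ZFP57 keeps that methylation in the early embryo and binds a methylated hexamer, TGCCGC. H2A.Z replaces H2A in nucleosomes at promoters and other regulatory sites and is largely kept apart from methylated DNA. Its monoubiquitylation is known from silent chromatin, such as the inactive X chromosome.

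Promoter sequences are shown because some transcription starts of imprinted genes carry the methylation differences between alleles, and the hexamer is marked in them. The RefSeq table used (GRCh38.p14) held 28 promoters for 6 of the 9 genes, PLAGL1, GRB10, MEST, MEG3, SNRPN and GNAS, each from 250 bases before to 50 after a start. The 250 bases before the start are printed for 4 of them, 5′ to 3′ on the strand of the gene, with TGCCGC or its reverse complement GCGGCA in capitals. For each printed gene the start with the most copies of the hexamer in these bases was chosen, the first on a tie. The printed stretches are therefore not typical of the starts, and GNAS starts 2 to 6, for example, held no copy. Methylation of the starts was not measured here. Starts are numbered along each gene in its direction of transcription, which for PLAGL1 and GRB10 runs against the coordinates of the chromosome. They were not placed on the hg19 peaks, because no hg19 annotation was used here.
PLAGL1 start 3: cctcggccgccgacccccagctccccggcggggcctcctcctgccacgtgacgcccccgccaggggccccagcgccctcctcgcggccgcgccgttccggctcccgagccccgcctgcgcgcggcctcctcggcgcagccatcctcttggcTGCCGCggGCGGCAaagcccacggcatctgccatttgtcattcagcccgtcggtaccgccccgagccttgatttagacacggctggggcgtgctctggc
SNRPN start 3: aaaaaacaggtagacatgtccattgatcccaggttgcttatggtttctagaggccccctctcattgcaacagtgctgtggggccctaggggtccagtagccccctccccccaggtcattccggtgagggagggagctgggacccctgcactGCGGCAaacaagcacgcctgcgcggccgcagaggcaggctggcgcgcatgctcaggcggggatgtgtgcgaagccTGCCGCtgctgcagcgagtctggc
MEG3 start 1: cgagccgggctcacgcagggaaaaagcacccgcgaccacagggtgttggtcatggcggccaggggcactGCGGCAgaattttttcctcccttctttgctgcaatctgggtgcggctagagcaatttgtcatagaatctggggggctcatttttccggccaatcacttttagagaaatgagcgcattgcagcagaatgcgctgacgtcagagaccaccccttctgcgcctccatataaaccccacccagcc
GNAS start 1: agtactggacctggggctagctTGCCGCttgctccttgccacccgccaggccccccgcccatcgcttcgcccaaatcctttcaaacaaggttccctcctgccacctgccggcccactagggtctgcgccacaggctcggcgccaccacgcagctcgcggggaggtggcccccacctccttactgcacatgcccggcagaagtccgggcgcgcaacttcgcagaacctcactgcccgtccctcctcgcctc

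PLAGL1 start 3 and SNRPN start 3 each held 2 copies in the printed stretch, and MEG3 start 1 and GNAS start 1 held 1 each. In the full 300 bases the hexamer stood on either strand in 12 of the 28 promoters (42.9%), compared with 16.7% of all 35116 promoters in the table. The 12 comprised 4 MEST, 3 MEG3, 2 SNRPN, 1 PLAGL1, 1 GRB10 and 1 GNAS promoters. Some of them overlap, the 3 of MEG3 among them, so they are not separate sequences. The hexamer holds a CpG, and the median CpG count was 18 in the member promoters and 14 in all. Among members it ran from 2 (PLAGL1 start 5 and SNRPN start 2) to 49 (GRB10 start 2), so single genes had both CpG-rich and CpG-poor starts.

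The number of H2A.Z regions differed widely between the loci. The window of DLK1, a ligand-like protein of the Notch pathway, and MEG3, a maternally expressed long non-coding RNA, held 637.5 regions per Mb. All merged regions averaged 65.9 per Mb, with each chromosome taken from its first to its last region, and chromosome 14 averaged 71.6. At the other end SNRPN, which encodes a splicing protein of the Prader-Willi region, held a single region in 250 kb. In between stood GNAS (144 per Mb), GRB10 (81.3), NNAT (70.0), PLAGL1 (60.9), PEG10 (41.7) and MEST (38.5). Only 19 of 12634 tiles of 240 kb, over all chromosomes but Y, held as many regions as DLK1 and MEG3 (0.150%, median tile 7), whereas 13.3% of 180 kb tiles held as many as GNAS. A count of at most 1, as at SNRPN, occurred in 15.5% of 250 kb tiles. The tiles began at the first base of each chromosome, and unassembled sequence, where no peak can be found, was not removed. Its tiles count as empty in all these shares, and their number was not determined. Without the DLK1 and MEG3 window the loci together held 63.2 regions per Mb instead of 151.

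**Figure D1:**
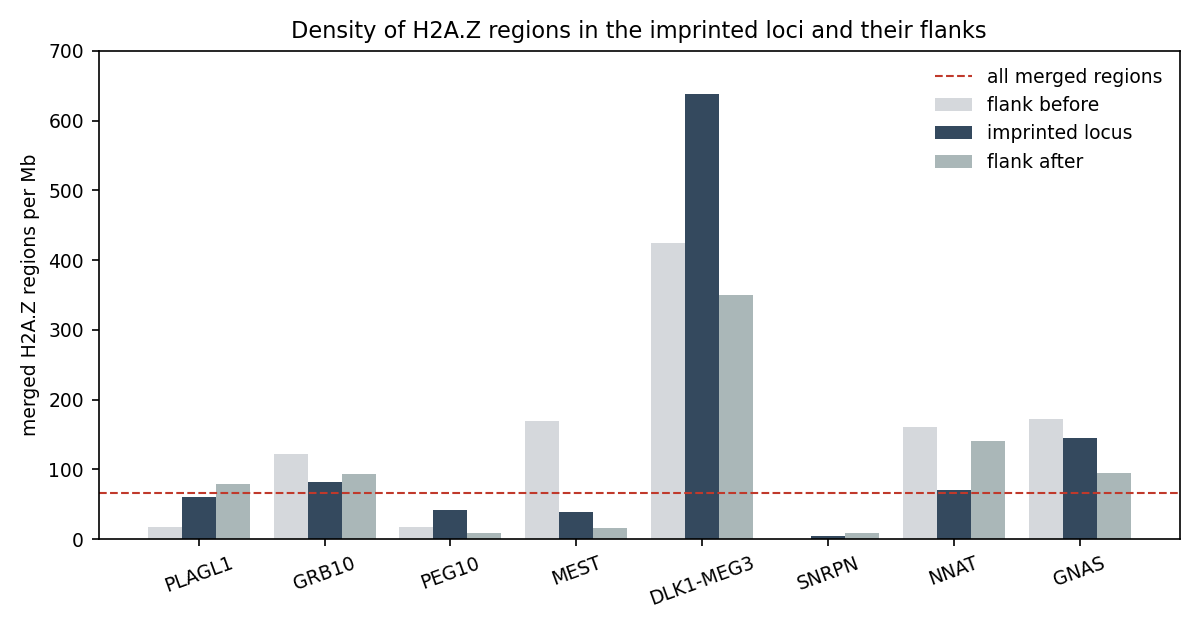
Merged H2A.Z regions per Mb (vertical axis) in each imprinted window (dark bars) and in flanks of the same length before and after it (light bars); the dashed line is the average over all merged regions, 65.9 per Mb. DLK1-MEG3 and both its flanks stand far above the line, and SNRPN and its flanks lie near 0.

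High or low density was in part shared with the flanks, taken as stretches of the same length on either side. Around DLK1 and MEG3 the flanks held 425 and 350 regions per Mb. After the last region of that window, however, came 79.2 kb without a peak of either list, before the next region at chr14:101457170-101457551. The SNRPN flanks held 0 and 2 regions, and the nearest regions to its single member lay 479 kb before and 213 kb after it. Besides DLK1 and MEG3 only PEG10 lay above both flanks, with 5 regions against 2 and 1. GRB10 (26 against 39 and 30) and NNAT (7 against 16 and 14) were below both. PLAGL1 (14 against 4 and 18), MEST (5 against 22 and 2) and GNAS (26 against 31 and 17) fell between theirs, as did SNRPN (1 against 0 and 2).

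In peak class, DLK1 and MEG3 held mostly shared regions, and among the other loci only PEG10 did (3 of 5). Peaks of both lists were found in 116 of the 237 members (48.9%), ubiquitylated peaks alone in 62 (26.2%) and total H2A.Z peaks alone in 59 (24.9%). Over all merged regions these shares were 41.9%, 28.9% and 29.2%. At DLK1 and MEG3 89 of 153 regions were shared (58.2%), a share also found in its flanks before (59.8%) and after (56.0%). The other loci together had 27 of 84 shared (32.1%) and 33 with total H2A.Z peaks alone (39.3%). Ubiquitylated peaks alone were the largest class only at GNAS (13 of 26), and total peaks alone were the largest at PLAGL1 (7 of 14), GRB10 (12 of 26), MEST (4 of 5) and SNRPN (its single region). In the flank before GNAS ubiquitylated peaks alone were also the largest class (15 of 31), and in the flank after it total peaks alone were (7 of 17). At NNAT shared regions and total peaks alone came to 3 each. The 2 lists covered unequal lengths at GNAS, 10.5 kb in 21 ubiquitylated peaks and 4.34 kb in 13 total peaks, and nearly equal ones over all loci but DLK1 and MEG3, 21.8 kb in 51 and 21.4 kb in 60 peaks.

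**Figure D2:**
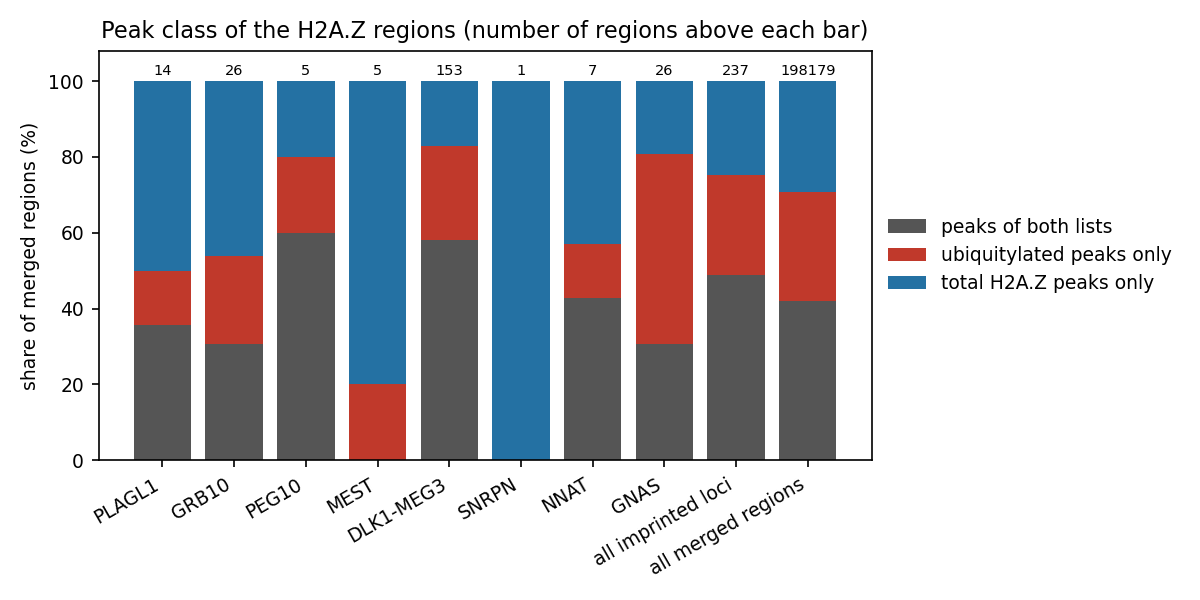
Share of merged regions (%, vertical axis) with peaks of both lists (grey), ubiquitylated peaks only (red) and total H2A.Z peaks only (blue) in each locus, in all imprinted loci and in all merged regions, with the number of regions above each bar. Shared regions make up 58.2% at DLK1-MEG3 and 41.9% of all regions, while MEST and SNRPN have none.

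Differential regions are those listed in the authors' deposited table of ubiquitylated against total H2A.Z, with a false discovery rate (FDR) of at most 0.05. Of the 237 members 17 were higher in ubiquitylated H2A.Z (7.17%), where 9.39% of all regions were, and 15 were higher in total H2A.Z (6.33%), where 12.1% of all were. In either direction these are 32 members (13.5%) against 21.5% of all. The low shares came with DLK1 and MEG3, where 10 of 153 lay towards ubiquitylated (6.54%) and 3 towards total H2A.Z (1.96%). Outside it 7 of 84 (8.33%) and 12 of 84 (14.3%) were, near the shares over all regions. The part of the peak classes in these low shares was not tested, and the shares within each class are as follows. Of the 89 shared regions at DLK1 and MEG3, 5 (5.62%) were called towards ubiquitylated and 1 (1.12%) towards total H2A.Z. Of all shared regions 5.97% and 7.52% were. At DLK1 and MEG3, 5 of 38 regions with ubiquitylated peaks alone were higher in ubiquitylated H2A.Z (13.2%, all: 23.8%). Of its 26 regions with total peaks alone 2 were higher in total H2A.Z (7.69%, all: 30.5%).

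By locus, the direction was often uniform or split along the window. All 4 differential regions of PLAGL1 and both of NNAT were higher in total H2A.Z, and the only one of MEST was higher in ubiquitylated H2A.Z. GRB10 had 1 towards ubiquitylated and 4 towards total, GNAS 5 and 2, and DLK1 and MEG3 10 and 3. PEG10 and SNRPN had none, and regions outside the differential lists carry no fold change. Of 26 pairs of consecutive differential members 20 shared a direction (76.9%), and over all differential regions 72.5% of such pairs did.

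**Figure D3:**
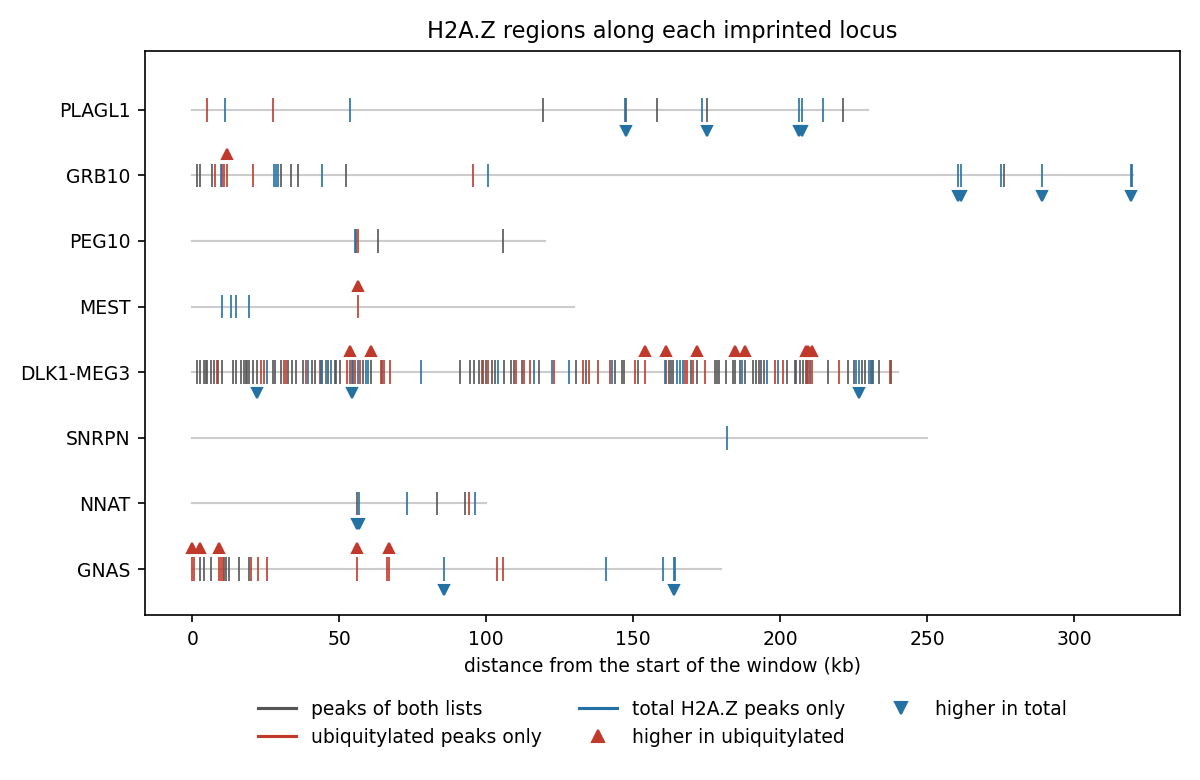
Position of every H2A.Z region (ticks, coloured by the lists that hold its peaks) along each window, as distance from the window's start in kb; triangles above mark regions higher in ubiquitylated and triangles below mark those higher in total H2A.Z according to the authors' deposited table. The direction changes along GRB10 and GNAS, once each.

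The authors' deposited table gives each differential region a signed change, positive towards ubiquitylated H2A.Z, taken here to be log2 although no base is stated. How it was normalized is not known here. Changes towards the ubiquitylated form were small. By the authors' deposited table the 17 members had a median log2 fold change of 0.52 (range 0.38 to 0.84), where all 18614 such regions had 0.68. Of these 17, 5 exceeded that median and none reached 2-fold by the authors' deposited table. Of all merged regions 1.47% reached 2-fold towards the ubiquitylated form. The 15 members higher in total H2A.Z had a median of -0.80 (-1.10 to -0.54) per the authors' deposited table, where all 23960 such regions had -0.76. Of these, 4 reached 2-fold per the authors' deposited table, 2 at DLK1 and MEG3 and 1 each at GRB10 and GNAS. They made up 1.69% of the members, and 2.39% of all merged regions reached 2-fold towards total H2A.Z. An FDR under 0.01 was met by 8 members towards ubiquitylated (3.38%) and 7 towards total H2A.Z (2.95%) per the authors' deposited table. Over all merged regions these shares were 5.16% and 7.09%.

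**Figure D4:**
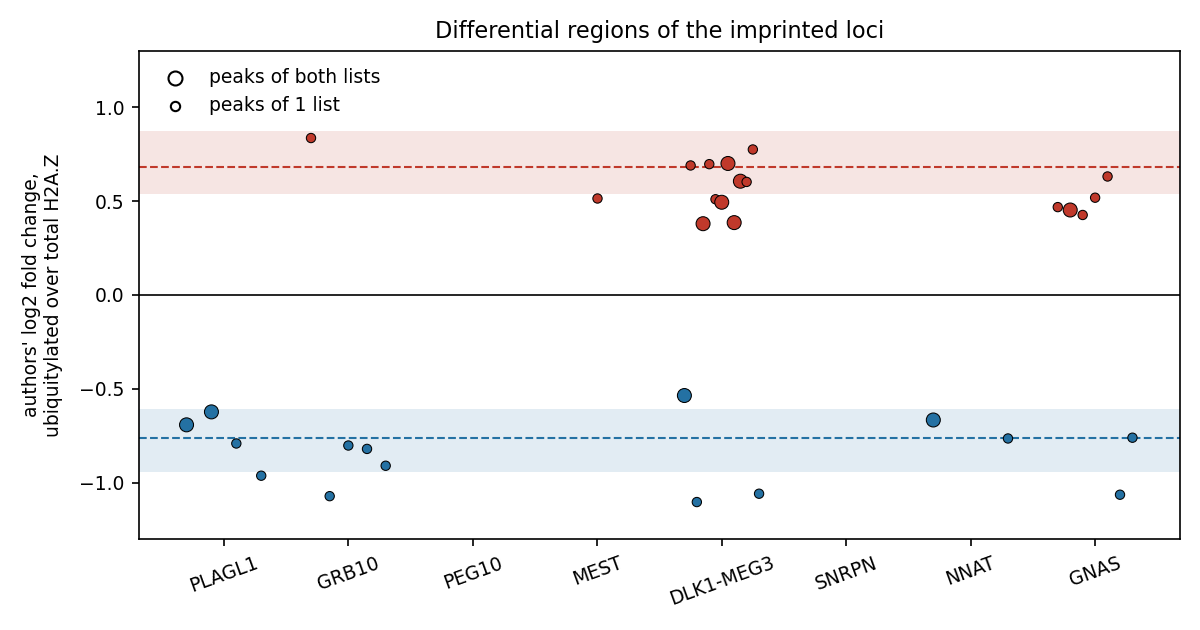
Log2 fold change (vertical axis, the authors' values) of the 32 differential members by locus, in order along the window; large points hold peaks of both lists, small points of 1 list, and bands with dashed lines show the quartiles and median of all differential regions in that direction. Most points towards ubiquitylated H2A.Z lie below the median of 0.68.

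The DLK1 and MEG3 window is densely covered from end to end. Its 153 regions covered 29.4% of the sequence, and those of its flanks covered 22.9% before and 15.7% after it. All regions cover 2.72% of the chromosomes, each taken from its first to its last region, and the other 7 windows were covered to 2.48%. The median distance from one region to the next was 561.5 bp in 152 intervals, 69.7% of which were under 1 kb, where 36.6% of all intervals are. The longest stretch without a peak inside the window ran for 13.1 kb, from 78.0 to 91.1 kb after its start. Bins of 20 kb held between 6 and 21 regions, most at 40 to 60 kb and fewest at 60 to 80 kb. In the first 20 kb 16 of 17 regions had peaks of both lists, the highest share of the 12 bins. Its widest region, chr14:101367297-101368606 (1310 bp), was differential in neither direction, and 97.8% of all regions are narrower.

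**Figure D5:**
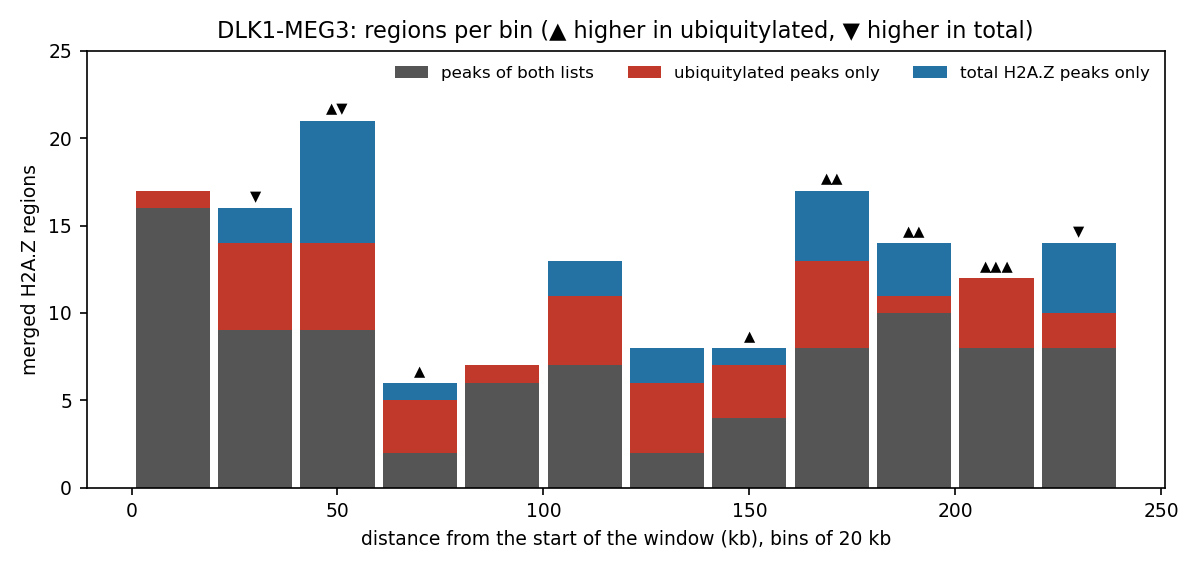
Number of merged regions per 20 kb bin (vertical axis) along the DLK1-MEG3 window, stacked by peak class; triangles above the bars count differential regions. Regions higher in ubiquitylated H2A.Z lie mostly between 140 and 220 kb, and the 3 higher in total H2A.Z lie at 20 to 60 and 220 to 240 kb.

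Of its 10 regions higher in ubiquitylated H2A.Z, 9 formed a series without an opposite call, over chr14:101200380-101351065 (151 kb). That stretch held 84 regions, of which 75 were differential in neither direction. The first region of the series, chr14:101200380-101201239, had a log2 fold change of 0.38 (FDR 0.045) per the authors' deposited table, and the next, chr14:101293770-101294419, lay 92.5 kb further on with 0.70 (FDR 0.0066). The authors' deposited table then gave 0.51 for chr14:101300970-101301502 (FDR 0.024) and 0.49 for chr14:101311238-101312045 (FDR 0.014). Of these 4, only the second lay above the median of all regions in its direction. By the authors' deposited table the lowest FDR of the series was 0.0017, at chr14:101349322-101350021 (log2 fold change 0.60). Its neighbours chr14:101348389-101348923 (0.61, FDR 0.0033) and chr14:101350901-101351065 (0.77, FDR 0.042) lay within 1 kb of it and moved the same way per the authors' deposited table. Upstream of this trio, chr14:101324479-101325073 (0.70, FDR 0.0021) and chr14:101327565-101328742 (0.38, FDR 0.023) completed the series per the authors' deposited table. The last of these, 1178 bp wide, held the most reproducible ubiquitylated peak of the window, with a lower irreproducible discovery rate (IDR, the authors' value for each peak, low where replicates rank a peak alike) than all but 1.37% of that list.

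Towards the start of the window both directions lay side by side. By the authors' deposited table chr14:101193448-101194035 was higher in ubiquitylated H2A.Z (log2 fold change 0.69, FDR 0.0077), and chr14:101194259-101194430, only 0.223 kb further, was higher in total H2A.Z (-1.10, FDR 0.014). Each held peaks of its own list alone. The other regions higher in total H2A.Z were chr14:101161772-101162169 (-0.54, FDR 0.045) and, at the far end, chr14:101366896-101367145 (-1.06, FDR 0.0032) per the authors' deposited table. The total H2A.Z peak with the lowest IDR, in chr14:101373501-101373838, was shared and not differential. Before the window 12.7% of the flanking regions (13) were called for the ubiquitylated form and 1.96% (2) for total H2A.Z. In the flank after it these were 6 (7.14%) and 1 (1.19%) of 84, so the ubiquitylated share lay above the 9.39% of all regions before the window and below it after.

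GNAS encodes the stimulatory G protein alpha subunit and makes maternal, paternal and biallelic transcripts from alternative promoters. The direction of differential regions changed once along this window. All 5 regions higher in ubiquitylated H2A.Z lay in chr20:57359767-57427265, and both higher in total H2A.Z lay beyond it, in chr20:57445610-57523926. The first 20 kb held 13 of its 26 regions, 8 of them shared, and no shared region lay further on. The widest member of any locus was here, chr20:57415076-57417157, a 2082 bp region with ubiquitylated peaks alone (0.52, FDR 0.00076 per the authors' deposited table). That was the lowest FDR among the members higher in ubiquitylated H2A.Z, and 99.5% of all regions are narrower. Its single peak had an IDR of 0.0137, where its list had a median of 0.00137, so it was wide but not among the most reproducible. The authors' deposited table gave the other 4 values of 0.47 (chr20:57359767-57360285, FDR 0.034), 0.45 (chr20:57362291-57362964, FDR 0.032), 0.43 (chr20:57368587-57369578, FDR 0.022) and 0.63 (chr20:57426677-57427265, FDR 0.0082). Those towards total H2A.Z were -1.06 (chr20:57445610-57445904, FDR 0.0066) and -0.76 (chr20:57523694-57523926, FDR 0.02) per the authors' deposited table. Between these 2 lay 4 regions that were not differential. Ubiquitylated peaks alone were held by chr20:57463589-57463776 and chr20:57465405-57465722, and total peaks alone by chr20:57500509-57500898 and chr20:57519829-57520242. The longest peak-free stretch of the window, 34.8 kb, separated the first pair from the second. The peaks of lowest IDR stood in the first 20 kb, in chr20:57371307-57371601 (ubiquitylated) and chr20:57370721-57370940 (total), and neither region was differential.

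GRB10 encodes an adaptor that binds the insulin and IGF receptors and dampens their signal, with promoters that differ in imprinting between tissues. Its regions formed 2 groups separated by 160 kb without a peak of either list, or 49.8% of the window. The first group, which ended at chr7:50700574-50700722, had 1 differential region, chr7:50611585-50611763, which was higher in ubiquitylated H2A.Z with a log2 fold change of 0.84 (FDR 0.021) per the authors' deposited table. This 179 bp region had the largest change in that direction of any member and the most reproducible ubiquitylated peak of GRB10. Beyond the gap 4 of the 7 regions were higher in total H2A.Z, with -1.07 (chr7:50860229-50860590, FDR 0.00088), -0.80 (chr7:50861561-50861787, FDR 0.0066), -0.82 (chr7:50889149-50889403, FDR 0.012) and -0.91 (chr7:50919307-50919508, FDR 0.033) per the authors' deposited table. All 4 held total peaks alone. The widest region, chr7:50629827-50630452 (626 bp), and that with the total peak of lowest IDR, chr7:50602422-50602692, were not differential, and no region of GRB10 reached 1 kb.

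PLAGL1, a zinc finger transcription factor expressed from the paternal allele, had the 3 lowest FDRs of all members, each for a region higher in the total form. The authors' deposited table gave -0.96 with an FDR of 3.4e-07 for chr6:144417014-144417586, and -0.79 for chr6:144416023-144416681, 0.332 kb before it (FDR 4.7e-05). Both held total peaks alone, and the first had an IDR below that of all but 0.690% of the list. The other 2 were shared regions. They were chr6:144384514-144385950 (-0.62, FDR 7.3e-05) and chr6:144357472-144357729 (-0.69, FDR 0.024) per the authors' deposited table. The former, 1437 bp wide, was the widest of the locus and also held its most reproducible ubiquitylated peak, so a reproducible ubiquitylated peak lay in a region that was higher in total H2A.Z. A second wide region, chr6:144328960-144330015 (1056 bp), was shared and not differential, and followed 65.2 kb without a peak.

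The 4 remaining loci, all known for paternal expression, had few regions. At MEST, which encodes a protein of the hydrolase family, the 4 regions with total peaks alone were 263 to 324 bp wide and not differential. The single ubiquitylated region, chr7:130125975-130126853, was 879 bp wide and per the authors' deposited table higher in ubiquitylated H2A.Z, with a log2 fold change of 0.52 and an FDR of 0.0048. It was the last region of the window, and 135 kb without a peak followed it. The total peak of lowest IDR at MEST lay in chr7:130089138-130089407.

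NNAT, which encodes the membrane protein neuronatin and lies within BLCAP, had its first region 55.9 kb into a window of 100 kb. The authors' deposited table gave -0.67 for this region, chr20:36155877-36156294 (FDR 0.019), and -0.76 for chr20:36156595-36156812, 0.300 kb further (FDR 0.036). The former was shared and held the ubiquitylated peak of lowest IDR. None of the other 5 was differential, including the widest, chr20:36192300-36192952 (653 bp), which held the total peak of lowest IDR.

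PEG10, a gene derived from a retrotransposon and active in placenta, had 3 regions close together and 2 further on, none of them differential. The 3 were chr7:94285195-94285440 with total peaks alone, chr7:94285631-94286014 with both and chr7:94286178-94286576 with ubiquitylated peaks alone, so the class changed from one to the next. The widest, chr7:94292789-94293919 (1131 bp), held the peaks of lowest IDR of both lists, and chr7:94335496-94336084 was also shared. SNRPN had only chr15:25201664-25202011, a 348 bp region with a total peak alone and an IDR of 0.0386, above that of 96.5% of its list. It was not differential, and in the first 182 kb of its window there was no peak of either list.

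Width differed with direction. The 17 members higher in ubiquitylated H2A.Z had a median width of 650 bp (165 to 2082), the 15 higher in total H2A.Z of 258 bp (172 to 1437) and the other 205 of 322 bp. Over all regions these medians were 507, 362 and 295 bp. The median of all members was 331 bp, compared with 313 bp for all regions, and 16 members (6.75%) reached 1 kb, 12 of them at DLK1 and MEG3, compared with 4.92% of all regions. Median IDR was 0.000884 for the 181 ubiquitylated and 0.00360 for the 180 total peaks of the members, where the whole lists had 0.00137 and 0.00335. DLK1 and MEG3 had 0.000848 and 0.00443, and the other loci together had 0.00111 and 0.00254.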

How the data were processed

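ChIP-seq peaks of ubiquitylated and total H2A.Z in HEK293T cells were used. Bowtie, SAMtools, MACS2, edgeR and the build hg19 are named as the authors' tools per the submitters' processing notes, without roles, versions or settings. The authors deposited 1 peak list per H2A.Z form with an IDR per peak, at most 0.05 per the file names. Its kind, local or global, is not stated. They also deposited log2 fold changes with an FDR for differential regions, split by direction into 2 lists. The log2 base was inferred from the authors' use of edgeR, per the submitters' processing notes.

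Starts were raised by 1 to give 1-based positions, peaks were merged where they overlapped or touched, and each differential region was matched to the identical merged region. Regions count as shared with peaks of both lists in them. The lists hold no counts, so results are described by counts and medians beside all merged regions, with no test. The merging of peaks and the rule that picks members were tested on simulated data. Named are all differential members, the widest region and the peak of lowest IDR per list in each locus. Members, lists and rules were chosen with earlier results of these data known, and tiles, bins, series and the split of directions along a locus were chosen after their values were seen. Scripts ran in Python 3.11.15 with matplotlib 3.10.9, scipy 1.17.1, pandas 2.3.3 and numpy 2.4.6.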

Additional observations from a re-analysis of the deposited data

How the results depend on the processing

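No paired analysis was possible because no value of a single library is held in the lists, and no replicate could be left out for the same reason. Of 70 alternatives, 57 left the value within 1.5 times the reported count or within the 95% binomial interval of the share or median, and 13 moved it. Some of the 57 could not have moved it. PEG10 and SNRPN hold no differential region, so leaving either out cannot change a count of differential members. Likewise, leaving out PLAGL1 or NNAT cannot change the count towards ubiquitylated H2A.Z, nor can leaving out MEST change that towards total H2A.Z. The density fell from 151 to 63.2 regions per Mb without DLK1-MEG3. The share of members with peaks of both lists was 38.3% with peaks under an IDR of 0.01 and 42.2% where 50% of both peaks had to overlap. Members higher in ubiquitylated H2A.Z, 17 as reported, numbered 8 at an FDR under 0.01, 0 at 2-fold or more, 6 among shared regions and 7 without DLK1-MEG3. Members higher in total H2A.Z, 15 as reported, numbered 7, 4 and 4 under the first 3 of these settings. By the authors' deposited table shared regions alone had a median log2 fold change of -0.64 towards total H2A.Z. The median IDR of total peaks was 0.00229 under an IDR of 0.01, where the alternative itself removes the higher values. The hexamer was on the strand of the gene in 6 of the 28 member promoters, where 8.66% of all promoters hold it on that strand. Among these 6, MEST starts 4 and 5 overlap. For the other changes the cause was not tested. Depth is unknown, so a locus with few regions cannot be told apart from one with peaks below the authors' threshold.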
